A study of Mus musculus with 12 samples.

Results

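The circular RNAs described here come from genes for zinc finger proteins. They are the rows of a mouse liver circRNA table that lie inside, and have at least 1 end on an exon boundary of, a GENCODE M21 protein-coding gene named Zfp, Zbtb, Zkscan, Zscan or Zmym followed by a number. The rule found 217 circRNAs among the 16445 of the table, or 1.32%, in 79 host genes. Both ends lay on exon boundaries in 205 of them and 1 end in the other 12. None had a second possible host gene.

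Total RNA of whole livers was sequenced for circRNAs from 6 PZH mice and 6 Control mice, each library labelled as a mouse of its own. PZH mice received carbon tetrachloride (CCl4), a toxin that scars the liver, plus PZH (Pien Tze Huang, a remedy of Chinese medicine) given as 25 mg/ml in water once daily in weeks 2 to 8. Control mice received CCl4 alone. In both groups 10% CCl4 was injected at 10 µl per 10 g body weight, 2 times a week for 8 weeks, and livers were taken at week 8; the strain is labelled C57BL/8, and the sources used here give no age or sex. All 12 livers were therefore exposed to CCl4, and no healthy liver was analysed here, so neither injury nor its reversal can be read from these values. The comparison asks which circRNAs differ in injured liver when PZH is given.

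A circRNA forms when the spliceosome joins the end of an exon to an upstream splice site and so closes a ring, and it is counted from reads across that back-splice junction. Zinc finger transcription factors hold zinc with pairs of cysteines and histidines (the C2H2 finger), and arrays of such fingers read DNA. Many also carry a KRAB domain, which recruits the corepressor Trim28 and histone methyltransferases, and the Zbtb proteins carry a BTB domain that recruits corepressors such as Ncor1. Zkscan and Zscan proteins carry a SCAN domain for pairing with each other, and Zmym proteins carry MYM-type fingers and sit in corepressor complexes. In the liver, Zbtb20 represses alpha-fetoprotein, and human ZKSCAN1 is known for an abundant circRNA of its exons 2 and 3.

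The back-splice junctions of the abundant zinc finger circRNAs that are coding on both sides are shown because each identifies its circle. The last 15 bases before the junction are in lower case and the first 15 bases after it in capitals, 5′ to 3′ on the strand of the gene, spliced from GENCODE M21 transcripts of GRCm38. Exon numbers count from the 5′ end of 1 matching transcript of each circRNA, which can differ between circles of the same gene. The Zfp426 circle lies at chr9:20473028-20476478 (minus strand), the Zfp827 circle at chr8:79118175-79136663 (plus), the Zfp512 circle at chr5:31466232-31468240 (plus) and the Zfp292 circle at chr4:34839332-34839986 (minus). The Zfp568 circle lies at chr7:29997750-29998210 (plus), the Zfp277 circle at chr12:40363134-40378874 (minus) and the Zfp148 circle of exons 5 to 7 at chr16:33456876-33468183 (plus).
Zfp426 exons 3 to 5: agatagttttcccagGTCCTTCAGAGGACT
Zfp827 exons 6 to 8: gagtgtctgctccagCGGAAAGCTACAAGG
Zfp512 exons 4 to 7: aatcataatagtctgGCGCAGGTGAAAAGG
Zfp292 exons 2 to 4: tggataaagagaaagACACTTCTTGAATAT
Zfp568 exons 5 to 6: ggagacgctctccagAAAACAGTGACATTC
Zfp277 exons 2 to 4: caaaaacacaaactgACAGTAAAGACTGTA
Zfp148 exons 5 to 7: agaagatccataccgATAAGTGTAAAGCAG

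The Zfp426 and Zfp568 circles are shown whole because all their bases are coding and both hold the conserved core of a KRAB domain, without any finger of the protein. Capitals mark the core, which begins with the codons of Glu, Glu and Trp and runs on through Leu-Tyr and Val-Met. The Zfp426 circle has 291 bases and the Zfp568 circle has 223 bases (GRCm38, at the positions given above).
Zfp426 exons 3 to 5: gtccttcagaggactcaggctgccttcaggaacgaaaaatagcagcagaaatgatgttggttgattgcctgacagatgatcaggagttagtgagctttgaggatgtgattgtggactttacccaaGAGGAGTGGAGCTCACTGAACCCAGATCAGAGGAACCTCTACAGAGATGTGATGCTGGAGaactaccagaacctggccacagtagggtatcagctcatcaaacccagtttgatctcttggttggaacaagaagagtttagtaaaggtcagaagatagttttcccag
Zfp568 exons 5 to 6: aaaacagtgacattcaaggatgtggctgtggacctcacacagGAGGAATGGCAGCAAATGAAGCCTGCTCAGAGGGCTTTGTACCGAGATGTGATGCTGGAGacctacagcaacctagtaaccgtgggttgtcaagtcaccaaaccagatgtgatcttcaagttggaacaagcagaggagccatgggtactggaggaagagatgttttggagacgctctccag

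Other circles take in finger code. The first complete finger inside 3 abundant ones is shown, with the codons of its 2 cysteines and 2 histidines in capitals. The Zbtb16 circle of exons 2 to 4 lies at chr9:48717283-48833099 (minus strand); the other positions are given above.
Zfp512 exons 4 to 7: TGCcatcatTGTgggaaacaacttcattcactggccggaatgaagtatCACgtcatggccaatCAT
Zbtb16 exons 2 to 4: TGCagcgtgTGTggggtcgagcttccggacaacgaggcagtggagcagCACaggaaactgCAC
Zfp148 exons 5 to 7: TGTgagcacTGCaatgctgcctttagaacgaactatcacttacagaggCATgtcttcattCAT

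The circles were described first by where they lie in the host transcript. Of the 204 zinc finger circRNAs on a coding transcript with both ends annotated, 53 held the start codon (26.0%), against 10.6% of 15371 other circRNAs of protein-coding genes. They were coding throughout in 140 cases (68.6%), against 87.7% of the others. Of 205 circles, 61 began at exon 2 (29.8%, against 25.1%), 15 were single exons (7.32%, against 3.94%), 124 had 2 or 3 exons (60.5%, against 51.7%) and 36 had 5 or more (17.6%, against 27.0%). The median spliced length was 443 bases (417 in the others) and the median of 3 exons was the same, while the genomic span was shorter at the median, 5056 bases against 6248 (no test was made of these features). The median introns were 5248 bases before and 4591 bases after the circle, against 5613 and 4457 in the others. No zinc finger circle held the first or the last exon, and only 0.13% and 0.045% of the others did.

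**Figure D1:**
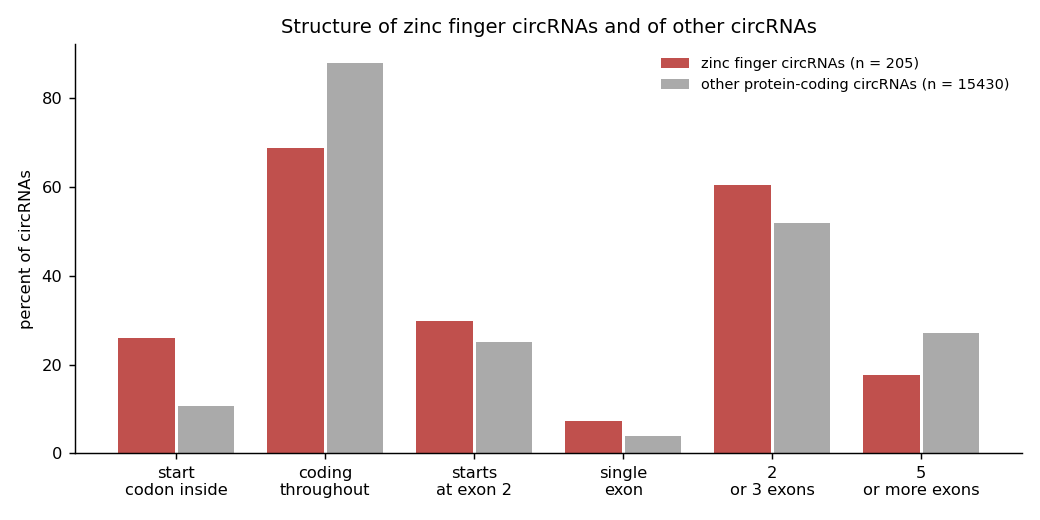
Percent of circRNAs (vertical axis) with each structural feature, for 205 zinc finger circRNAs (red) and 15430 other circRNAs of protein-coding genes (grey); for the start codon and coding throughout, the shares are of the 204 and 15371 on coding transcripts. The start codon lay inside 26.0% of the zinc finger circles and 10.6% of the others.

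The zinc finger code was only partly taken into the circles. A search of the translated transcripts for the spaced Cys-Cys-His-His pattern of C2H2 fingers could be made for 202 circles, and 171 of them came from hosts with at least 1 finger. Of these 171, 106 (61.99%) held no complete finger. All fingers lay in the last exon in 29 of the 72 hosts with a motif, and none of the 38 circles of those hosts held a finger, since no circle took in a last exon. Of the 133 circles of the other finger hosts, 65 held at least 1, up to 24 in a Zfp236 circle. Zfp236 is a protein with a long array of fingers. Among the tested circles, 22 of 55 held a finger, among them Zfp516 exon 2 with 8 of 10, Zbtb16 exons 2 to 4 with 3 of 9 and Zfp148 exons 5 to 7 with 2 of 4.

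KRAB code showed the opposite placement. The search for the KRAB core was chosen after the circles had been seen. It was present in 15 hosts, and 17 of their 20 circles held it, with no finger in any of the 17. Of all 202 zinc finger circles searched, 17 thus held the core. In the other circRNAs of protein-coding genes, 4 of 15280 held the core, from 2 host genes. That share covers hosts with and without a KRAB core, so it is not comparable with 17 of 20. Of the 17 circles, 5 were tested, from Zfp426 (2 circles), Zfp568, Zfp141 and Zfp790. The search used a single fixed pattern of amino acids, so hosts whose KRAB domain departs from it are not among the 15. The match describes these letters only.

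An open reading frame from the host's start codon could be followed around the circle in 53 cases. It crossed the back-splice junction in 52 and met no stop codon in 6 (11.3%, against 12.7% of other circRNAs). The median frame with a stop was 129 codons in zinc finger circles and 161 in the others. In Zfp148 exons 2 to 4 the frame had 144 codons, 111 of them before the junction. In Zkscan1 exons 2 to 3 it had 202, with 191 before the junction, and in Zbtb16 exons 2 to 4 it had 508. Translation was not measured.

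**Figure D2:**
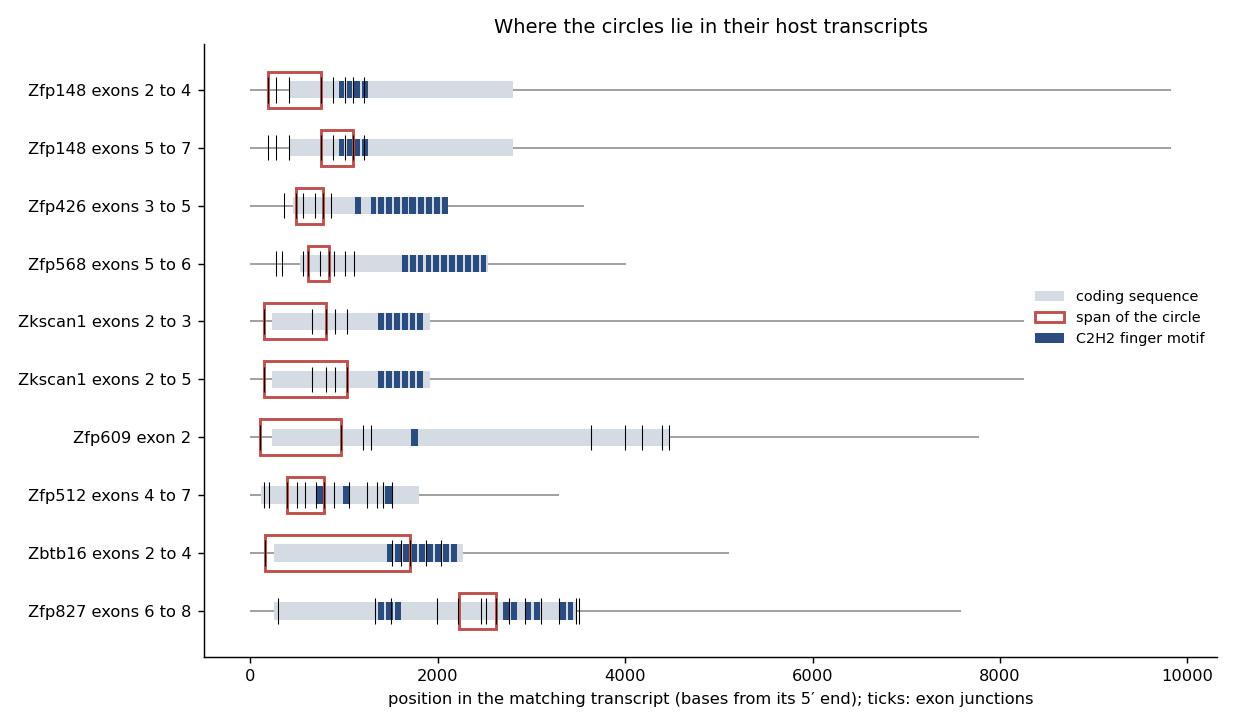
Position of 10 zinc finger circles (red boxes) along their matching transcripts, in bases from the 5′ end, with coding sequence in pale blue, C2H2 finger motifs in dark blue and exon junctions as ticks. The circles of Zfp426, Zfp568, Zkscan1 and Zfp609 end before the first finger, while those of Zfp512, Zbtb16 and Zfp148 exons 5 to 7 reach into the fingers.

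A minority of the zinc finger genes gave a circle, and most circles were rare. A circRNA was listed for 79 of 471 genes of the rule (16.8%), against 21.4% of 21951 protein-coding genes. The latter share was counted without asking for an annotated end and includes the zinc finger genes, so the shares are not strictly alike. Zfp genes gave 160 circles from 62 of 394 genes, Zbtb genes 24 from 10 of 41, Zkscan genes 5 from 3 of 11 and Zmym genes 28 from 4 of 6. None was listed for the 19 Zscan genes. Zfp638, an RNA-binding cofactor of fat cell differentiation, gave the most with 17 circles, followed by Zmym4 with 15, Zfp236 with 12, Zfp148 with 10, Zfp644 with 9, and Zbtb20 and Zmym2 with 8 each. Hosts gave 2.75 circles on average (3.49 over the protein-coding hosts of the table, counted in that wider way) and 40 hosts gave 1 circle only. Of the members, 157 (72.4%) shared an end with another member, so many circles are alternatives at 1 splice site. Exon 2 of Zfp236 began 8 circles, and exon 7 of Zfp148 closed 6.

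Values are SRPBM, a count of back-splice reads scaled to the size of the library; the exact formula is not given in the sources used here. Of the 217 members, 85 were above 0 in 1 library (39.2%, against 44.2% of the table), 73 in 2 to 5 libraries and 18 in all 12. Members seen in PZH libraries only numbered 47, and 52 were seen in Control libraries only. These counts include the 85 members above 0 in 1 library. The same counts over the table are not given here, so they are not read as a difference between the groups. Testing was limited to circRNAs above 0 in at least 6 of the 12 libraries. This left 59 members from 33 hosts (27.2%, against 23.5% of the table), and the other 158 were not tested. A value of 0 may be a circle missed at this depth: the libraries held back-splice reads worth 92559 to 129699 read pairs in PZH livers and 80442 to 130487 in Control livers, if each library's smallest value is 2 read pairs. Zeros were also listed in circles that were not rare. Zfp276 exons 8 to 10 had 0 in PZH 3 and 5.09 to 14.6 SRPBM in the other PZH livers. The cause of the zeros was not tested. In bulk liver, fewer cells of a type and less circRNA per cell cannot be told apart.

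Summed over all members, the zinc finger circles reached 491 ± 77.4 SRPBM in PZH livers and 456 ± 85.4 SRPBM in Control livers (SD, n = 6 each). The ranges were 410.5 to 599 in PZH livers and 333 to 533 in Control livers, so the groups overlapped. As a share of all circRNA signal this was 1.35% ± 0.0810 in PZH livers and 1.29% ± 0.119 in Control livers. PZH livers listed 66 to 81 members above 0 and Control livers 48 to 87. The lowest library of the 12, for the sum and for the number of members, was Control 2, which also had the fewest estimated read pairs. By family, the mean sums were 415 SRPBM in PZH livers and 379.8 in Control livers for Zfp genes, 38.1 and 38.3 for Zbtb, 8.63 and 15.8 for Zkscan, and 29.2 and 21.6 for Zmym.

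Of the 59 tested zinc finger circRNAs, none passed an adjusted p of 0.05 between PZH and Control livers in the limma fit over all 3870 tested circRNAs, of which 2 passed, or 0.0517%. The smallest adjusted p of a member was 0.454. At an unadjusted p under 0.05, 3 members were higher in PZH livers (5.08%), where 4.55% of the table was, and 5 were lower (8.47%), where 3.0% of the table was. The log2 fold changes of the members (on the log2 of SRPBM plus 0.636) had a median of 0.13, against 0.06 in the table, with 33 positive and 26 negative. Positive values made up 55.9% of members and 54.3% of the table. The count of 3 rested on single libraries: it was 0 without PZH 2, PZH 6 or Control 2, and 1 without PZH 3, PZH 5 or Control 6. The count of 5 was 2 without Control 1, 3, 4 or 5. The groups did not overlap in 1 of the 59 members, Zfp568, and in 0.672% of the table.

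**Figure D3:**
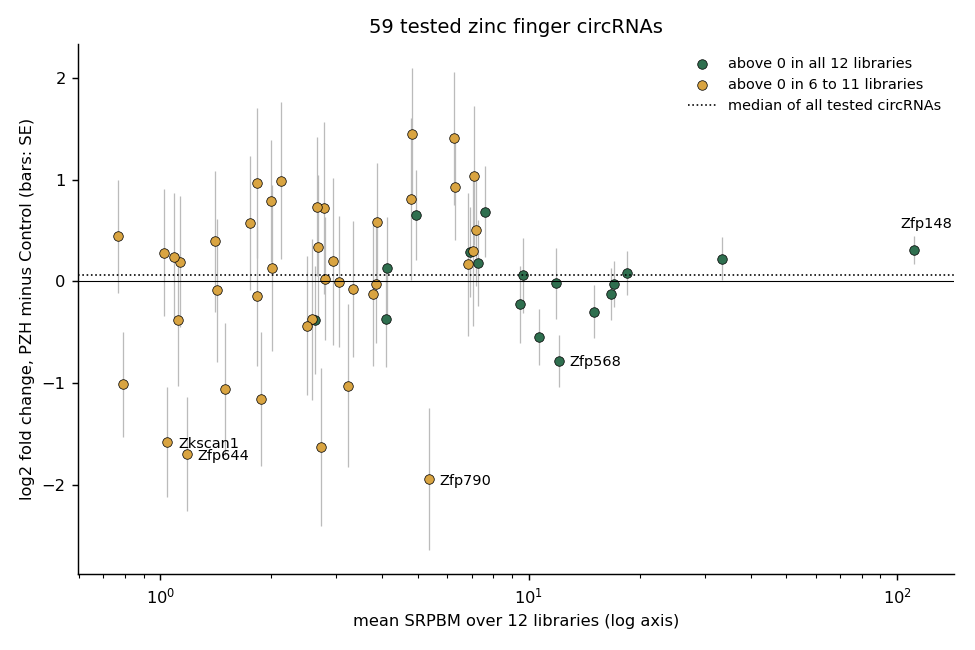
Log2 fold change, PZH minus Control, with its SE (vertical axis) against mean SRPBM over 12 libraries (log axis) for the 59 tested zinc finger circRNAs; green points were above 0 in all 12 libraries and yellow points in 6 to 11. The 18 green points lie between -0.78 and 0.68 and the yellow points between -1.94 and 1.45; the dotted line is the table's median of 0.06.

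Zfp148 encodes ZBP-89, a factor that binds GC-rich promoters. Its circle of exons 2 to 4 (chr16:33421321-33434974, plus strand, 567 bases) was the most abundant zinc finger circRNA and ranked 24th in the table. It alone gave 23.5% of the members' signal, 3.32 times the next one. Zfp148 exons 2 to 4 had 109, 137, 107, 110.3, 104 and 174 SRPBM in PZH livers 1 to 6, against 106, 82.4, 114, 109.7, 94.5 and 86.0 SRPBM in Control livers 1 to 6. PZH 6 and PZH 2 stood above all Control livers, and the other 4 PZH livers lay among them. The means were 124 ± 27.6 SRPBM in PZH livers and 98.8 ± 13.1 SRPBM in Control livers (SD, n = 6 each), a log2 fold change of 0.31 (SE 0.13) with a limma adjusted p of 0.610. The unadjusted p of 0.0327 became 0.111 without PZH 6.

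Zfp148 made further circles beside this one. Zfp148 exons 5 to 7 had 4.095, 12.9, 16.2, 9.23, 4.63 and 8.31 SRPBM in PZH livers 1 to 6, against 14.2, 1.798, 4.63, 8.15, 2.63 and 4.69 SRPBM in Control livers 1 to 6. The highest Control value, in Control 1, exceeded all PZH values but PZH 3, and the log2 fold change was 0.68 (SE 0.45, limma adjusted p 0.731). The circle of exons 2 to 7 was listed at 0 in PZH 4 and in Control 1 and 2, and had a log2 fold change of 0.81 (SE 0.80). Those of exons 6 to 7 and 2 to 5 had -0.37 and -0.38. The 10 circles of the gene summed to 148 SRPBM in PZH livers and 118 in Control livers, with a log2 fold change of 0.32 (SE 0.15).

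The next most abundant circles lay close together in both groups. Zfp426, a KRAB zinc finger gene, was second, and its circle of exons 3 to 5 ranked 156th in the table. Zfp426 exons 3 to 5 had 28.5, 34.3, 46.2, 30.03, 39.5 and 34.4 SRPBM in PZH livers 1 to 6, against 18.6, 35.1, 27.1, 49.7, 35.6 and 22.9 SRPBM in Control livers 1 to 6. The highest and the lowest value were both in Control livers. The means of 35.5 ± 6.51 SRPBM in PZH livers and 31.5 ± 11.2 SRPBM in Control livers (SD, n = 6 each) gave a log2 fold change of 0.22 (SE 0.21, limma adjusted p 0.839). The human homolog of Zfp827 brings the NuRD remodelling complex to telomeres. Its circle of exons 6 to 8 averaged 19.2 ± 4.94 SRPBM in PZH livers and 17.8 ± 3.24 SRPBM in Control livers (SD, n = 6 each), with a log2 fold change of 0.08 (SE 0.21). The circle of Zfp512 exons 4 to 7 averaged 16.7 ± 2.596 SRPBM in PZH livers and 17.4 ± 5.08 SRPBM in Control livers (SD, n = 6 each), with a log2 fold change of -0.02 (SE 0.23). Zfp292, a large multi-finger gene, gave a circle of exons 2 to 4 at 16.1 ± 4.99 SRPBM in PZH livers and 17.4 ± 5.11 SRPBM in Control livers (SD, n = 6 each), with a log2 fold change of -0.12 (SE 0.25). In each of these 3 circles the groups overlapped over most of their range. With 95% intervals such as -0.36 to 0.53 for Zfp827, a moderate change in either direction cannot be told from none.

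Zfp609, the homolog of human ZNF609, gives a circle of its exon 2 that is known from muscle cells in mouse and human. The circle (chr9:65794622-65795495, minus strand, 874 bases) held a frame of 250 codons, 249 of them before the junction. Zfp609 exon 2 had 21.5, 12.2, 13.7, 9.68, 8.31 and 15.5 SRPBM in PZH livers 1 to 6, against 26.3, 12.9, 16.1, 12.5, 17.1 and 14.1 SRPBM in Control livers 1 to 6. Control 1 was the highest library, well above the next Control library at 17.1, and PZH 1 was the second highest. The log2 fold change was -0.30 (SE 0.26, limma adjusted p 0.815). The last 25 bases of this circle also occur in a transcript of another gene, so reads there could be shared. Zfp277 exons 2 to 4, the eighth most abundant, averaged 11.9 ± 7.26 SRPBM in PZH livers and 11.8 ± 5.37 SRPBM in Control livers (SD, n = 6 each), and its highest value of 26.2 SRPBM was in PZH 6. The 8 most abundant circles held 49.8% of the members' signal.

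**Figure D4:**
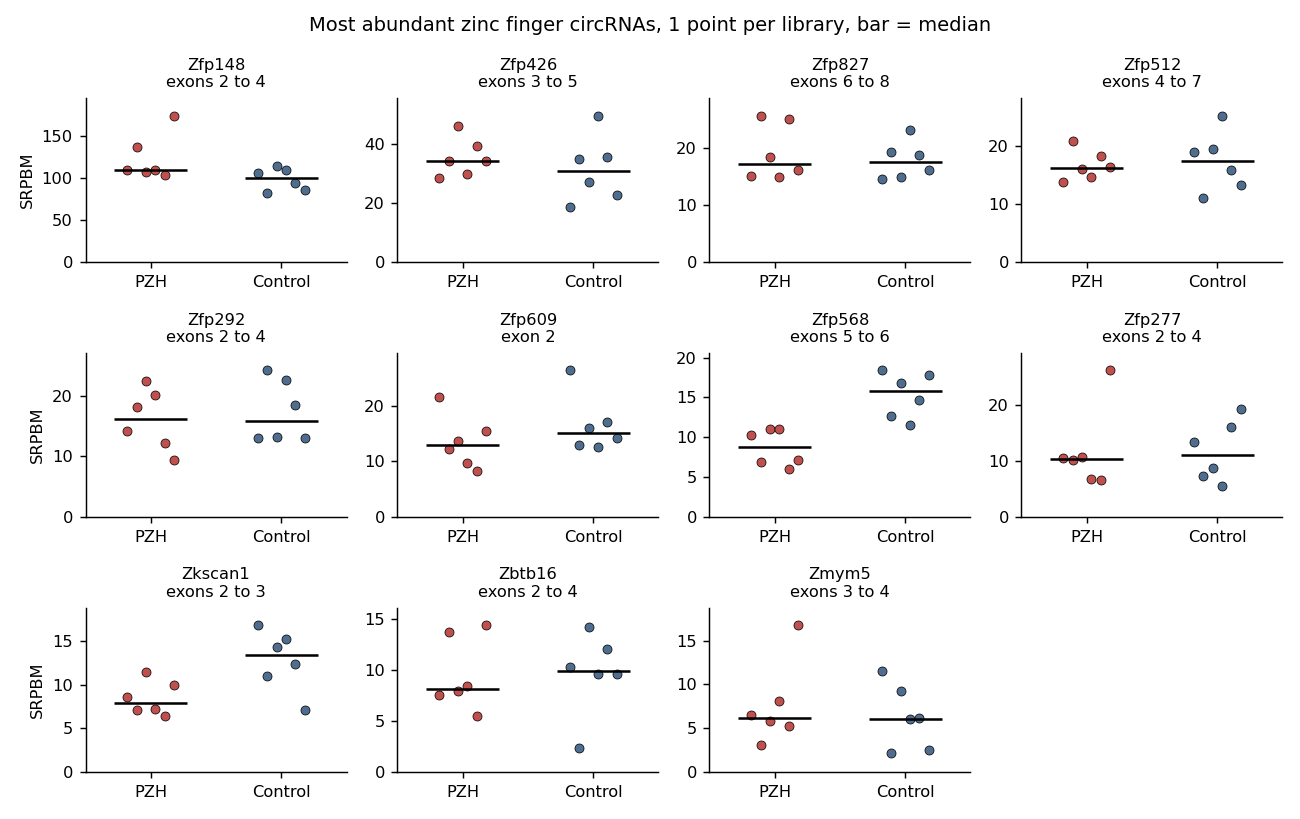
SRPBM in each library (points) with the group median (bars) for 11 abundant zinc finger circRNAs, PZH left and Control right, each panel from 0 on its own scale. In 10 panels the groups overlap; in Zfp568 all 6 PZH livers, at 6.03 to 11.1, lie below all 6 Control livers, at 11.6 to 18.4.

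Zfp568 is a KRAB zinc finger gene known as a repressor of a placental form of Igf2 in mouse. Its circle of exons 5 to 6, shown whole above, had the lowest unadjusted p of the members. Zfp568 exons 5 to 6 had 10.3, 6.96, 11.03, 11.1, 6.03 and 7.15 SRPBM in PZH livers 1 to 6, against 18.4, 12.7, 16.8, 11.6, 14.7 and 17.8 SRPBM in Control livers 1 to 6. All 6 PZH livers were below all 6 Control livers, although PZH 4 at 11.1 and Control 4 at 11.6 nearly met. The means were 8.76 ± 2.299 SRPBM in PZH livers and 15.3 ± 2.81 SRPBM in Control livers (SD, n = 6 each), and the log2 fold change was -0.78 (SE 0.25, 95% interval -1.31 to -0.25). The unadjusted limma p was 0.00569 and the adjusted p 0.454, so it did not pass over the table. The log2 fold change stayed between -0.86 and -0.69 in all 24 alternatives.

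Zfp790, another KRAB gene of chromosome 7, gave a circle of exons 2 to 3 (chr7:29822980-29824953, plus strand, 289 bases). Zfp790 exons 2 to 3 had 0, 0, 0, 6.23, 2.504 and 11.1 SRPBM in PZH livers 1 to 6, against 3.58, 9.38, 7.84, 8.92, 5.94 and 8.71 SRPBM in Control livers 1 to 6. It was listed at 0 in 3 PZH livers and in no Control liver, while PZH 6 had the highest value of all 12. The log2 fold change was -1.94 (SE 0.70, limma adjusted p 0.526). The other tested KRAB circles, Zfp141 exons 3 to 5 and Zfp426 exons 3 to 7, had log2 fold changes of 0.50 (SE 0.55) and 0.19 (SE 0.65). Zfp426 exons 3 to 7 is numbered on a different transcript from Zfp426 exons 3 to 5. Both circles end at position 20473028 of chromosome 9, and the circle of exons 3 to 7 begins further upstream, at 20486437.

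Zkscan1 is the mouse homolog of the human gene whose circle of exons 2 and 3 is known from liver. The same exons gave its main circle here (chr5:138092920-138094139, plus strand, 661 bases). Zkscan1 exons 2 to 3 had 8.64, 7.05, 11.4, 7.26, 6.395 and 9.97 SRPBM in PZH livers 1 to 6, against 16.8, 11.04, 14.3, 15.2, 12.4 and 7.103 SRPBM in Control livers 1 to 6. PZH livers lay mostly below Control livers, but Control 6 was within their range and Control 2 was below PZH 3. The means were 8.45 ± 1.94 SRPBM in PZH livers and 12.8 ± 3.47 SRPBM in Control livers (SD, n = 6 each), with a log2 fold change of -0.55 (SE 0.27, limma adjusted p 0.658). A longer circle from the same start, exons 2 to 5 (chr5:138092920-138097579, 880 bases), was rare. Zkscan1 exons 2 to 5 had 0, 0, 0, 0, 0 and 1.05 SRPBM in PZH livers 1 to 6, against 2.78, 2.88, 1.599, 2.45, 1.75 and 0 SRPBM in Control livers 1 to 6. It was thus above 0 in 1 PZH liver and 5 Control livers, with a log2 fold change of -1.58 (SE 0.54, limma adjusted p 0.480). The circle of exons 4 to 5 was above 0 in 3 Control livers and no PZH liver and was not tested.

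Summed over the gene, Zkscan1 circles had 8.64, 7.05, 11.4, 7.26, 6.395 and 11.02 SRPBM in PZH livers 1 to 6, against 19.6, 13.9, 15.9, 18.4, 15.4 and 7.81 SRPBM in Control livers 1 to 6. All PZH livers were below every Control liver but Control 6. The log2 fold change of the sum was -0.75 (SE 0.30) with an unadjusted limma p of 0.0213 and an adjusted p of 0.544.

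Zfp644 works with Wiz and the histone methyltransferases Ehmt1 and Ehmt2. Its 2 tested circles share the end at position 106666785 of chromosome 5 (GRCm38, minus strand). The shorter, chr5:106666785-106669840, has 1 annotated end. The shorter Zfp644 circle had 0, 0, 0, 0, 1.09 and 0 SRPBM in PZH livers 1 to 6, against 3.28, 0, 2.42, 3.303, 2.17 and 1.87 SRPBM in Control livers 1 to 6. It was above 0 in 1 PZH liver and 5 Control livers, with a log2 fold change of -1.70 (SE 0.56, limma adjusted p 0.454). The circle of exons 4 to 5 reaches to 106682013. Zfp644 exons 4 to 5 had 0, 0, 0, 0, 2.86 and 5.26 SRPBM in PZH livers 1 to 6, against 2.94, 0, 5.496, 6.69, 5.404 and 4.11 SRPBM in Control livers 1 to 6. It was above 0 in 2 PZH livers and 5 Control livers, with a log2 fold change of -1.63 (SE 0.77, limma adjusted p 0.649). The 5 circles that share this end summed to 0, 0, 0, 0, 3.95 and 7.14 SRPBM in PZH livers 1 to 6, against 11.5, 0, 11.6, 11.98, 10.5 and 5.98 SRPBM in Control livers 1 to 6. Control 2, listed at 0 here, had the fewest estimated read pairs, 80442, and Control 6 had 85200 with 5.98 SRPBM at this end. PZH 1 to 4, also at 0, had 92559 to 129699. The part of depth in these zeros was not tested. Among the 217 members, 2 were above 0 in at least 5 Control livers and at most 1 PZH liver, the shorter Zfp644 circle and Zkscan1 exons 2 to 5. The reverse held for 0 members. Among the 16445 circRNAs of the table, 25 were seen mainly in Control livers by this rule and 45 mainly in PZH livers.

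In the other direction, Zfp148 exons 2 to 4 had the smallest unadjusted p, followed by circles of Zfp236 and Zfp532, both on chromosome 18. Zfp532 is the homolog of a human gene that can be fused to NUT in carcinoma. Zfp532 exons 5 to 8 had 5.80, 17.8, 7.44, 3.19, 8.91 and 6.76 SRPBM in PZH livers 1 to 6, against 9.604, 0, 0, 3.56, 6.16 and 5.75 SRPBM in Control livers 1 to 6. Its circle of exons 5 to 8 was listed at 0 in Control 2 and 3 only, with a log2 fold change of 1.404 (SE 0.66, limma adjusted p 0.632). Zfp236 gave 5 tested circles that start at exon 2, and their log2 fold changes differed in sign. Zfp236 exons 2 to 7 had 5.58, 7.97, 9.20, 2.197, 6.18 and 8.19 SRPBM in PZH livers 1 to 6, against 6.75, 0, 6.22, 0, 4.08 and 1.58 SRPBM in Control livers 1 to 6. The circle of exons 2 to 7 was listed at 0 in Control 2 and 4, with a log2 fold change of 1.45 (SE 0.64, limma adjusted p 0.613). Those of exons 2 to 6, 2 to 4, 2 to 3 and 2 to 5 had log2 fold changes of 0.65 (SE 0.44), 0.13 (SE 0.50), -0.43 (SE 0.68) and -1.15 (SE 0.66). The sum of the 12 Zfp236 circles was 25.8 SRPBM in PZH livers and 22.6 SRPBM in Control livers.

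Zfp326, part of the complex that links RNA polymerase II to splicing with Ccar2, gave a circle of exons 6 to 7 (chr5:105891118-105896603, plus strand). Zfp326 exons 6 to 7 had 5.82, 9.52, 8.26, 4.97, 8.31 and 9.62 SRPBM in PZH livers 1 to 6, against 7.67, 4.39, 4.96, 0, 5.66 and 6.23 SRPBM in Control livers 1 to 6. PZH values lay from 4.97 to 9.62 and Control values reached 7.67, with Control 4 listed at 0. The log2 fold change was 0.92 (SE 0.52, limma adjusted p 0.686). Zfp638 exons 11 to 13 had 6.55, 6.52, 8.55, 9.44, 3.67 and 13.4 SRPBM in PZH livers 1 to 6, against 10.9, 0, 10.2, 8.35, 7.74 and 0 SRPBM in Control livers 1 to 6. Control 2 and 6 were listed at 0, and the other 4 Control livers lay within the range of the PZH livers. This circle (chr6:83954711-83957592, plus strand, 204 bases) had a log2 fold change of 1.04 (SE 0.69, limma adjusted p 0.732).

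**Figure D5:**
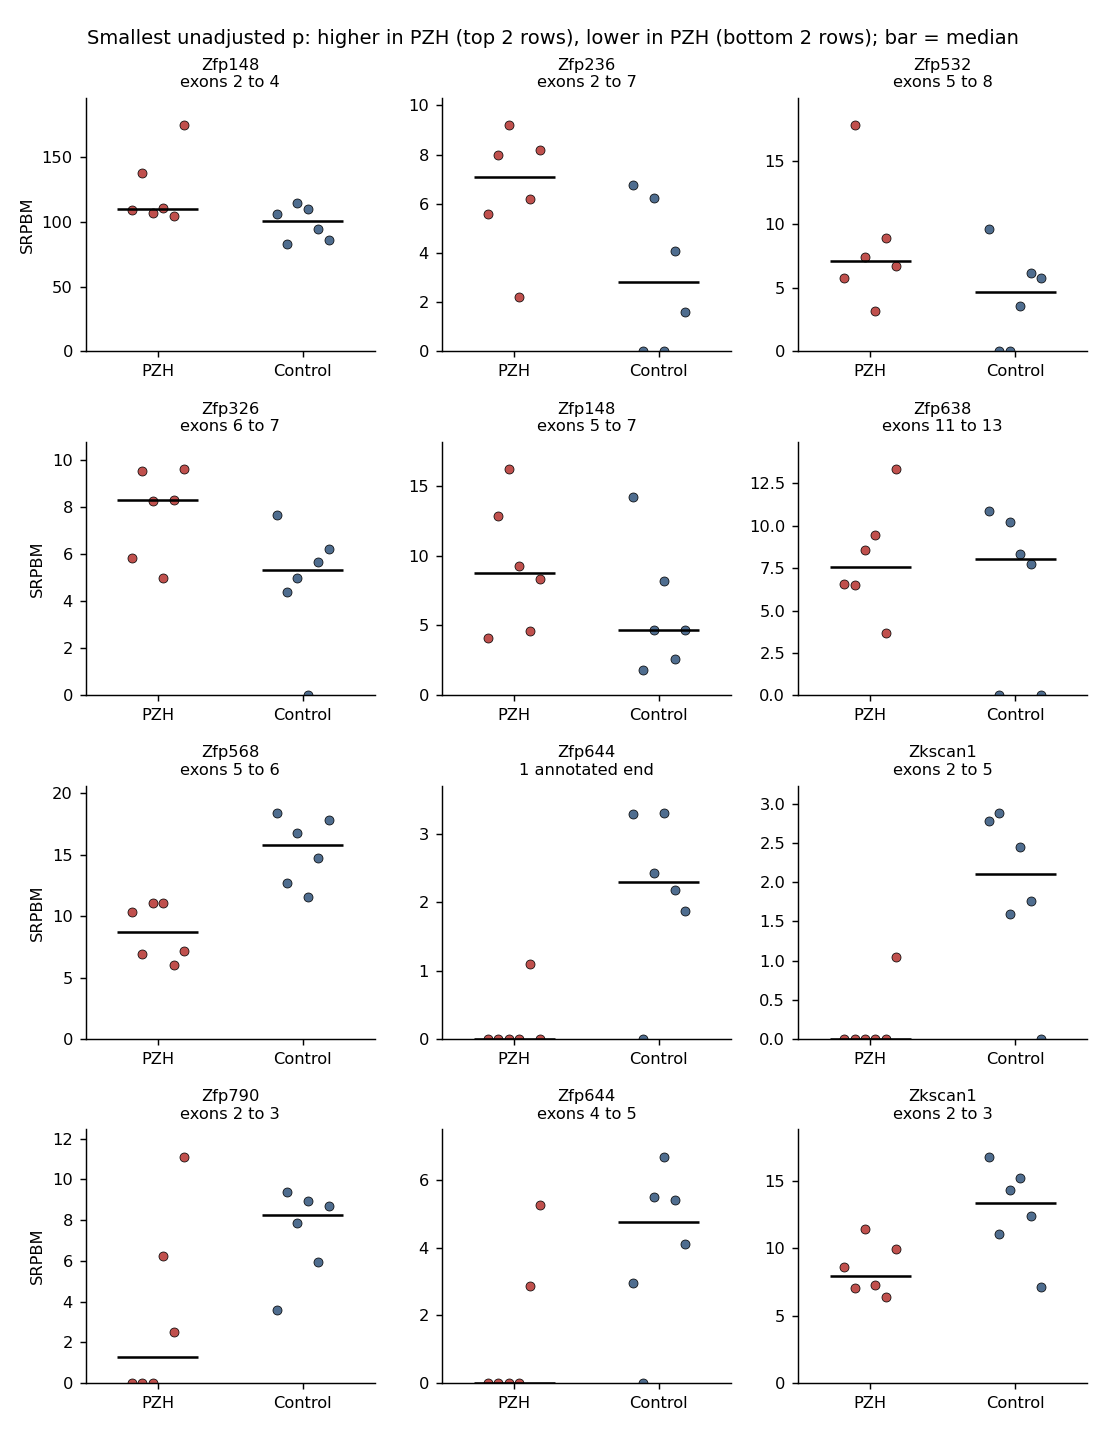
SRPBM in each library (points) with the group median (bars) for the 6 zinc finger circRNAs with the smallest unadjusted p among those higher in PZH (top 2 rows) and the 6 among those lower in PZH (bottom 2 rows), PZH left and Control right. Zfp568 is the single panel without overlap; the shorter Zfp644 circle and Zkscan1 exons 2 to 5 are listed at 0 in 5 of 6 PZH livers.

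None of the Zbtb and Zmym circles passed the test. Zbtb16 encodes PLZF, a repressor that works with Ncor and histone deacetylases. Zbtb16 exons 2 to 4 had 7.56, 13.7, 7.89, 8.39, 5.46 and 14.4 SRPBM in PZH livers 1 to 6, against 10.2, 2.35, 14.2, 9.63, 12.1 and 9.63 SRPBM in Control livers 1 to 6. The lowest value was in Control 2, and the groups overlapped, with a log2 fold change of 0.06 (SE 0.37, limma adjusted p 0.979). Zbtb16 exons 3 to 4 had a log2 fold change of 0.18 (SE 0.43). For Zbtb20, the 8 circles summed to 8.81 SRPBM in PZH livers and 11.04 in Control livers. Zmym5 exons 3 to 4 (chr14:56804149-56804863, minus strand, 540 bases), in which the frame from the start codon met no stop, averaged 7.601 ± 4.79 SRPBM in PZH livers and 6.27 ± 3.69 SRPBM in Control livers (SD, n = 6 each), with a log2 fold change of 0.28 (SE 0.44). The last 25 bases of this circle also occur in transcripts of other genes. Zmym4 exons 3 to 5 (chr4:126923064-126926023, minus strand) had a log2 fold change of -0.07 (SE 0.67) and its highest value, 12.05 SRPBM, in Control 4. Zmym2, a member of the CoREST corepressor complex, had 8 circles that summed to 8.76 SRPBM in PZH livers and 5.59 in Control livers, a log2 fold change of 0.67 (SE 0.44). Among tested circles, 4 of 6 Zbtb and 4 of 5 Zmym circles had positive log2 fold changes, and 25 of 46 Zfp and 0 of 2 Zkscan circles did.

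The 37 tested circles outside the naming rule, some of them given above, had 22 positive and 15 negative log2 fold changes and a smallest unadjusted limma p of 0.0621. After Zfp236 exons 2 to 5 at -1.15, the lowest log2 fold changes were -1.06 (SE 0.65) in a Zbtb20 circle with 1 annotated end (chr16:43257024-43302615, plus strand), -1.02 (SE 0.80) in Zfp451 exons 4 to 6, a gene for a SUMO ligase, and -1.01 (SE 0.51) in Zfp277 exons 3 to 4. The highest were 0.99 (SE 0.77) in Zfp407 exons 4 to 8 and 0.97 (SE 0.74) in Zbtb20 exons 10 to 13. Zfp516 exon 2 had 11.3, 7.59, 10.8, 14.3, 1.78 and 9.41 SRPBM in PZH livers 1 to 6, against 12.2, 6.85, 10.1, 9.79, 12.1 and 7.04 SRPBM in Control livers 1 to 6. Zfp516, a factor of brown fat genes, had the most abundant of these circles, a single exon of 1926 bases in which PZH 5 was the lowest library, and its log2 fold change was -0.23 (SE 0.38). Zfp141 exons 3 to 5 had 6.17, 8.58, 13.3, 5.78, 4.76 and 7.35 SRPBM in PZH livers 1 to 6, against 0, 6.97, 8.21, 10.5, 8.44 and 6.205 SRPBM in Control livers 1 to 6. This KRAB circle was listed at 0 in Control 1 alone. Zfp276 exons 8 to 10 had 5.09, 14.6, 0, 11.4, 6.402 and 9.801 SRPBM in PZH livers 1 to 6, against 11.2, 2.602, 9.81, 0, 7.25 and 6.43 SRPBM in Control livers 1 to 6. Zfp276 was listed at 0 in 1 liver of each group and had a log2 fold change of 0.30 (SE 0.73).

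Summing all circles of a gene gave 37 testable zinc finger hosts out of 2205 in the table. None passed an adjusted p of 0.05 in the limma fit, as in the table (0.0%). The smallest adjusted p of a host was 0.454. At an unadjusted p under 0.05, 2 hosts were higher in PZH livers, Zfp532 with a log2 fold change of 0.96 and Zfp148 with 0.32, where 5.03% of the table's hosts were. Another 3 were lower, Zfp568 with -0.80, Zfp790 with -1.92 and Zkscan1 with -0.75, where 3.08% of the table's hosts were. Positive values were found for 23 hosts and negative values for 14, with a median of 0.17, against 0.06 over the table.

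Whether a host switched between circles was tested in the 3 zinc finger hosts with at least 2 circles above 0 in all 12 libraries, as the ratio of the 2 most abundant of those circles. This left out Zfp236 exons 2 to 7, which was listed at 0 in 2 Control livers. The log2 ratio of Zfp148 exons 2 to 4 over exons 5 to 7 was 3.89 ± 0.776 in PZH livers and 4.36 ± 0.959 in Control livers (SD, n = 6 each), a difference of -0.47 (SE 0.46, limma adjusted p 0.663). For Zfp236, exons 2 to 6 over exons 2 to 4 differed by 0.58 (SE 0.56, limma adjusted p 0.663). For Zbtb16, exons 2 to 4 over exons 3 to 4 differed by -0.12 (SE 0.56, limma adjusted p 0.948). None reached an unadjusted p of 0.05, and 11.3% of the 221 hosts of the table did.

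Partners of these factors were looked at through a list of 46 corepressor and chromatin genes, 31 of which gave 195 circles. Of the 46 tested circles, none passed the adjusted p; 26 had positive and 20 negative log2 fold changes, with a median of 0.08 against 0.06 in the table. At an unadjusted p under 0.05, 2 were higher in PZH livers (4.35%, against 4.55% of the table) and 0 lower (against 3.0%), so the share of higher ones was near that of the table. Ehmt1 exons 4 to 8 had 19.3, 21.6, 13.9, 23.6, 9.75 and 15.3 SRPBM in PZH livers 1 to 6, against 10.7, 6.51, 13.98, 6.55, 9.68 and 9.49 SRPBM in Control livers 1 to 6. Most PZH livers lay above the Control livers, but PZH 3 and PZH 5 were below Control 3. Ehmt1 encodes GLP, a histone H3 lysine methyltransferase, and this circle of exons 4 to 8 had a log2 fold change of 0.81 (SE 0.27, limma adjusted p 0.454). Other tested Ehmt1 circles differed in sign. Exons 4 to 10 had 0.89 (SE 0.54) and exon 3 had 0.76 (SE 0.60), while exons 16 to 18 had -0.21 (SE 0.24) and exons 4 to 6 had -1.17 (SE 0.64). The remaining circle counted as higher came from Mta1, a NuRD subunit. It had a log2 fold change of 1.56 (SE 0.67, limma adjusted p 0.605) and was listed at 0 in 1 PZH liver and 4 Control livers. No circle was listed for Trim28, the main partner of KRAB domains.

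Circles of cell type marker genes were also summed. The marker lists were chosen with earlier results of these data known, so the number of markers with circles is no check of the tissue label. All 14 hepatocyte marker genes gave circles, with sums of 779.6 to 1148 SRPBM in PZH livers and 764 to 1240 in Control livers. Stellate cell markers gave circles from 3 of 12 genes, Reln, Dlc1 and Zeb2, with none for Col1a1, Lrat or Des. Their sums were 8.93 to 21.03 SRPBM in PZH livers and 1.78 to 9.60 in Control livers. Zeb2 is also in the list of zinc finger genes outside the naming rule, so this sum is no reading of stellate cells alone. Macrophage markers (5 of 8 genes, none for Clec4f or Cd68) summed to 40.6 to 65.7 SRPBM in PZH livers and 34.1 to 59.6 in Control livers. Endothelial markers (7 of 9, none for Kdr) summed to 25.0 to 38.8 in PZH livers and 31.2 to 58.7 in Control livers, and cholangiocyte markers (3 of 8, none for Krt19 or Epcam) to 63.9 to 90.9 in PZH livers and 51.3 to 87.9 in Control livers. The part of these cells in the zinc finger values was not tested.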

How the data were processed

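Total RNA of 12 mouse livers (6 PZH, 6 Control) was sequenced on an Illumina HiSeq, per the labels' protocols. The authors deposited 1 table of SRPBM per circRNA, a signal normalized to library size; Trim Galore and STAR are named with GRCm38 in the submitters' processing notes, without versions. The sources used here name neither the circRNA caller and its filters nor the formula of SRPBM. Between 56.8% and 63.8% of low values (up to 8.5 steps of the smallest value divided by 2) lay within 0.05 below and 0.1 above a whole step, so reads were not recovered and no count model was used. PZH libraries held 92559 to 129699 read-pair equivalents and Control libraries 80442 to 130487.

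Hosts, exons and sequences came from GENCODE M21 (GRCm38). CircRNAs above 0 in at least 6 libraries were tested as log2(SRPBM + 0.636), the median of the libraries' smallest values, with limma 3.58.1 (R 4.3.3), a variance trend and Benjamini-Hochberg adjustment over all 3870, at 0.05; host sums likewise, and within-host log2 ratios without the trend. A fold change on this scale understates the change of low circRNAs. The limma p-values set the group difference against the spread between mice within the groups, with the variance moderated over all features of the fit. Values of circRNAs with any 0 are given per library.

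Named circRNAs were the 8 with the highest mean, all past the threshold, the 6 with the smallest p in each direction, the top of each name family, the top circle of the 3 hosts with most circles, those above 0 in at least 5 libraries of 1 group and at most 1 of the other, the ratio hosts with the smallest p in each direction, and the 2 cofactor circles with the smallest p; others are named as examples of a group, chosen after their values were seen. The members and lists were chosen with earlier results of these data known. Leave-one-out, filters, pseudocounts, scalings, weights, the trend, a replicate block and strict host assignment were the alternatives. Python 3.11.15 with pandas 2.3.3 and numpy 2.4.6 was used for annotation, and matplotlib 3.10.9 for figures.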

Additional observations from a re-analysis of the deposited data

Results flagged for a closer look

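In 6 of 48 groups of values (chance flags about 1 in 20), 1 library stood apart from the other 5 by a gap that, over the group's range, exceeded Dixon's 95% critical value. Zfp277 exons 2 to 4 had 26.2 SRPBM in PZH 6, against 10.7 in the next PZH liver. Zmym5 exons 3 to 4 had 16.8 SRPBM, also in PZH 6, against 8.12 in the next PZH liver. Zfp609 exon 2 had 26.3 SRPBM in Control 1, against 17.1 in the next Control liver, and Zmym4 exons 3 to 5 had 12.05 SRPBM in Control 4, against 4.51. In the remaining pair of rare circles a single PZH liver was above 0: the shorter Zfp644 circle had 1.09 SRPBM in PZH 5 and Zkscan1 exons 2 to 5 had 1.05 SRPBM in PZH 6. Both met the naming rule of at most 1 library above 0 in a group. Their flags follow from that rule and cannot be set against the chance rate.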

How the results depend on the processing

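No zinc finger circRNA or host sum passed an adjusted p of 0.05 in any of 24 settings, nor any within-host ratio in 16; the smallest adjusted p of a named circRNA in any setting was 0.0611, for Zfp148 exons 2 to 4 with no filter. Over the whole table the fit called 2 circRNAs; the count was 6 with a filter of 3 libraries, 10 with a filter of 12, 30 with no filter, 1 with the replicate block, and 1 to 3 when 1 library was left out. The replicate numbers did not pair the samples (correlations of same-numbered samples -0.119 to 0.0261), and with the block 1 member was higher and 5 lower at an unadjusted p under 0.05. The members' median log2 fold change was -0.01 to 0.20 and the difference of their summed SRPBM 10.98 to 51.6 (35.4 with all libraries) when 1 library was left out. Of 506 alternative values of 22 named circRNAs, 487 kept their direction and 19 reversed, in 6 circRNAs near 0. With 1 library left out, the log2 fold change was -0.0041 to 0.16 for Zfp827 exons 6 to 8 (negative without PZH 2), -0.14 to 0.093 for Zfp512 exons 4 to 7 (positive without PZH 1 or 4 or Control 1, 3 or 4) and -0.23 to 0.016 for Zfp292 exons 2 to 4 (positive without PZH 6). It was -0.27 to 0.14 for Zfp277 exons 2 to 4 (positive without PZH 4 or 5 or Control 1, 5 or 6), -0.27 to 0.19 for Zbtb16 exons 2 to 4 (negative without PZH 2 or 6 or Control 2) and -0.32 to 0.37 for Zmym4 exons 3 to 5 (positive without PZH 3 or Control 4 or 5). Zbtb16 exons 2 to 4 was also -0.066 with library weights. The cause of these reversals was not tested. In rare circles a 0 may be a junction missed at this depth. Zeros were also listed in circles that were not rare, such as Zfp276 exons 8 to 10, and their cause was not tested.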

Other observations

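Zinc finger genes outside the naming rule (Klf, Hivep, Ikzf, Prdm, Zmiz and others, a list of 95) gave 118 circles from 39 genes, of which 34 were tested and none passed an adjusted p of 0.05 in the limma fit. At an unadjusted p under 0.05, 4 were higher in PZH livers (11.8%, against 4.55% of the table) and 1 was lower (2.94%, against 3.0%). The median log2 fold change was 0.18, against 0.06 in the table, over 19 positive and 15 negative values. Rreb1 exons 2 to 6 had 37.8, 29.7, 43.7, 41.7, 40.7 and 47.3 SRPBM in PZH livers 1 to 6, against 25.1, 23.5, 30.7, 26.9, 20.8 and 18.6 SRPBM in Control livers 1 to 6. Rreb1 is a factor of Ras-responsive genes, and PZH 2 was the only PZH liver below any Control liver (log2 fold change 0.72, SE 0.17, limma adjusted p 0.263). Hivep1 exon 2 had 11.2, 11.4, 9.77, 10.2, 10.8 and 0 SRPBM in PZH livers 1 to 6, against 24.5, 10.2, 21.9, 31.4, 18.8 and 17.9 SRPBM in Control livers 1 to 6. Hivep1 encodes a factor that binds kappa B sites, and Control 2 alone among Control livers lay within the range of the PZH livers (log2 fold change -1.54, SE 0.55, limma adjusted p 0.504). The other circles counted as higher were Rreb1 exons 2 to 8, Klf12 exons 2 to 3 and Zmiz1 exons 2 to 6. Rreb1 exons 2 to 8 had a log2 fold change of 2.09 (SE 0.78) and was listed at 0 in 1 PZH liver and 5 Control livers. Klf12 exons 2 to 3 had 1.81 (SE 0.71), but the other tested Klf12 circles had -1.40 (SE 0.89) and -1.78 (SE 0.90). Zmiz1 exons 2 to 6 had 0.86 (SE 0.35), exons 2 to 3 had 0.51, exons 4 to 6 had 0.42 and exons 3 to 6 had -0.52.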
